A study of Capra hircus with 8 samples.

Results

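Mitochondria carry their own ribosome, which translates the few messenger RNAs made from mitochondrial DNA, and its protein subunits are encoded by nuclear genes. These genes were examined in 8-cell goat (Capra hircus) embryos, in the table of messenger RNA levels. The genes were chosen by name alone: MRPL (mitochondrial ribosomal protein of the large subunit) or MRPS (of the small subunit) followed by a digit, leaving out any name that the table of annotated long non-coding RNAs also holds. The rule found 77 genes among 22107 names, of which 49 were MRPL and 28 were MRPS genes. None was left out as a long non-coding RNA. All 77 are listed as protein-coding genes in the RefSeq table of goat genes.

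The embryos compared were made by somatic cell nuclear transfer (SCNT, 2 libraries), the transfer of a donor cell's nucleus into an enucleated egg, or by in vitro fertilisation (IVF, 2 libraries), both at the 8-cell stage. No genetic change or drug treatment is labelled for either group. The kind of donor cell, the number of embryos in a library and whether replicates came from separate pools are not stated in the labels used here. The 4-cell libraries of the series were not analysed here. Levels are FPKM, fragments per kilobase of a gene's length and per 1000000 sequenced fragments.

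The mitochondrial ribosome descends from a bacterial ancestor. Its core holds proteins with bacterial relatives, and around them lie proteins found only in mitochondria. It is attached to the inner membrane and makes membrane subunits of the respiratory chain and of the ATP synthase, so its protein genes are the nuclear contribution to that supply. Mitochondria of the early embryo come from the egg, in SCNT embryos largely from the recipient egg, and the genome of the embryo itself becomes active around this stage in ruminants.

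The libraries had recovered depths of 27.5 to 30.3 M reads (M, 1000000). Of the 14 genes on a marker list for oocytes and 8-cell embryos, 13 were found. Their summed level was 5980 and 8370 FPKM in SCNT embryos, against 7670 and 7680 FPKM in IVF embryos. Much of that sum was BTG4, with 3330 and 4250 FPKM in SCNT embryos, against 5070 and 6040 FPKM in IVF embryos. BTG4, ARGFX and ZAR1 had both SCNT values below both IVF values, and DUXA and LEUTX overlapped. The others, ZAR1L, BMP15, GDF9, ZP3, KHDC3L, TLE6, NLRP5 and POU5F1, had both above, and 2 of the 13 rose. Summed fibroblast markers came to 82.7 and 90.5 FPKM in SCNT embryos, against 128 and 113 FPKM in IVF embryos. That order rested on DCN, without which they summed to 48.9 and 51.0 FPKM in SCNT embryos, against 33.2 and 28.0 FPKM in IVF embryos. Of the 9 tested fibroblast markers TIMP1 and TAGLN rose in SCNT embryos, COL1A2 and COL3A1 also had both SCNT values above both IVF values, DCN and FAP had both below, and FBN1, LUM and PDGFRA overlapped. The other 5, COL1A1, COL5A1, THY1, POSTN and PDGFRB, stayed under 1 FPKM in all 4 libraries. The part of these markers in the results was not tested. Cumulus and granulosa markers summed to 21.5 and 37.1 FPKM in SCNT embryos, against 41.9 and 51.2 FPKM in IVF embryos, with INHA, AMH and FSHR at 0 throughout. The SCNT libraries differed from each other more than the IVF libraries did, and SCNT replicate 2 stood farthest from the rest. Calls are therefore given with and without it. Of the other differences only some are, and those given only with it may rest on it as well.

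More of the mitochondrial ribosomal protein genes were detected in SCNT embryos, as was the case over the whole table. At 1 FPKM or more stood 67 and 73 of the 77 genes in SCNT embryos, against 61 and 59 in IVF embryos. Over all listed names, 9883 and 11025 reached 1 FPKM in SCNT embryos, against 8984 and 9038 in IVF embryos. The median level of the 77 genes was 9.66 and 16 FPKM in SCNT embryos, against 6.48 and 6.11 FPKM in IVF embryos. Both SCNT medians were the higher ones, and SCNT replicate 2 was well above SCNT replicate 1. Whole embryos were lysed and FPKM is relative to each library's reads, so neither cell number nor RNA per cell was measured.

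Most of the summed level came from a handful of genes. The 77 genes added up to 2244 and 3167 FPKM in SCNT embryos, against 2194 and 1942 FPKM in IVF embryos. MRPL18, MRPS36, MRPL37, MRPL42 and MRPL58 together held 54.4% and 54.2% of that sum in SCNT embryos, against 62.1% and 58.8% in IVF embryos. As a share of all FPKM the 77 genes took 0.59% and 0.742% in SCNT embryos, against 0.528% and 0.498% in IVF embryos. SCNT replicate 1 lay close to the IVF libraries in this sum, and MRPS36 was a larger part of it in IVF embryos. With MRPS36 left out the sums were 1988 and 3111 FPKM in SCNT embryos, against 1604 and 1558 FPKM in IVF embryos.

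**Figure D1:**
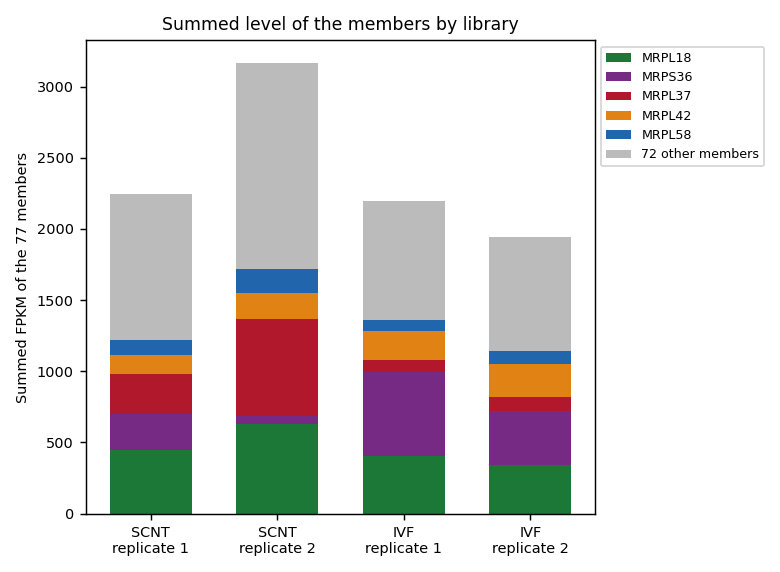
Stacked bars give the summed FPKM of the 77 mitochondrial ribosomal protein genes in each 8-cell library, SCNT on the left and IVF on the right, with the 5 genes of highest mean level in colour and the other 72 in grey. The total is highest in SCNT replicate 2 at 3167 FPKM, the MRPL37 block is larger in both SCNT libraries, and the MRPS36 block is larger in both IVF libraries.

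The 5 most abundant genes did not share a direction. MRPL18, a protein of the central protuberance of the large subunit, had 447 and 629 FPKM in SCNT embryos, against 407 and 338 FPKM in IVF embryos. MRPL58, a peptidyl-tRNA hydrolase built into the large subunit that frees stalled ribosomes, had 106 and 166 FPKM in SCNT embryos, against 76.8 and 91.2 FPKM in IVF embryos. MRPL42, found only in mitochondria, had 136 and 186 FPKM in SCNT embryos, against 209 and 232 FPKM in IVF embryos. For these 3 genes the groups did not overlap, but the log2 differences (SCNT minus IVF, of FPKM + 1) were small at 0.51, 0.66 and -0.47, and none passed the test. The other 2 genes, MRPL37 and MRPS36, had the largest differences of the 5 and are described with their groups.

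Tests compared SCNT with IVF embryos by limma on log2(FPKM + 1). Tested were genes that reached 1 FPKM in at least 2 of the 4 libraries, with Benjamini-Hochberg adjustment over all 10303 tested genes and a threshold of 0.05. Of the 77 genes 68 were tested and 9 stayed below the filter. Of the 68 tested genes 2 rose in SCNT embryos, MRPL12 and MRPL37, none fell, and 66 did not pass. Over all tested genes 3.86% passed, 3.02% higher and 0.844% lower in SCNT embryos, so the count of 2 is near that background. The 398 calls of the whole table split into 311 higher and 87 lower in SCNT embryos as deposited, but into 158 and 238 with each library centred on its median and 121 and 150 after quantile normalization. At an unadjusted limma p under 0.05 stood 31 of the 68 members, 27 higher in SCNT embryos and 4 lower. Of all 10303 tested genes 3200 (31.1%) reached that level, 2620 higher and 580 lower. The members' share was thus larger on the higher side and similar on the lower side, which was not tested. A second limma fit with voom weights on recovered reads called 2 of the 68 members, and 551 of all 10298 genes in that fit. Without SCNT replicate 2 none of the members passed, and 46 genes did in the whole table. Without SCNT replicate 1, in contrast, 37 members passed, 33 higher and 4 lower in SCNT embryos, and 3834 genes did in the whole table, with SCNT embryos then represented by 1 library that is assumed to vary like the IVF libraries.

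In 40 of the 68 tested genes (58.8%) the lower SCNT value exceeded the higher IVF value, against 46.9% of all tested genes. The reverse held for 6 of the 68 (8.82%), against 17.1% of all tested genes. Counting all 77 genes, with those below the filter, 46 had both SCNT values above, 6 had both below and 25 overlapped. Of all 20289 genes above 0 in any library, 39.4% had both above and 12.5% both below. The median log2 difference was 0.86 over the 68 tested members, against 0.39 over all tested genes. It was 0.70 over all 77 members, against 0.13 over the 20289 genes. With each library centred on its median, the median of all tested genes moved to -0.10 and that of the members to 0.36, and 28 of the 68 members then had both SCNT values above and 12 both below, against 28.6% above and 33.5% below of all tested genes. After quantile normalization 33 were above and 10 below, against 30.9% and 29.2% of all tested genes. Relative to the median of all tested genes, the members' median was higher by 0.46 as deposited, and by 0.46, 0.49 and 0.52 under the other scalings. It was higher by 0.18 without SCNT replicate 2. With SCNT replicate 1 alone, 45 of the 68 members lay above both IVF values and 17 below both. Of all tested genes 57.9% then lay above and 25.3% below, so the members' share below was near that of all genes. Since 2 libraries a group cannot reach a permutation p of 0.05, these counts and medians are descriptions.

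**Figure D2:**
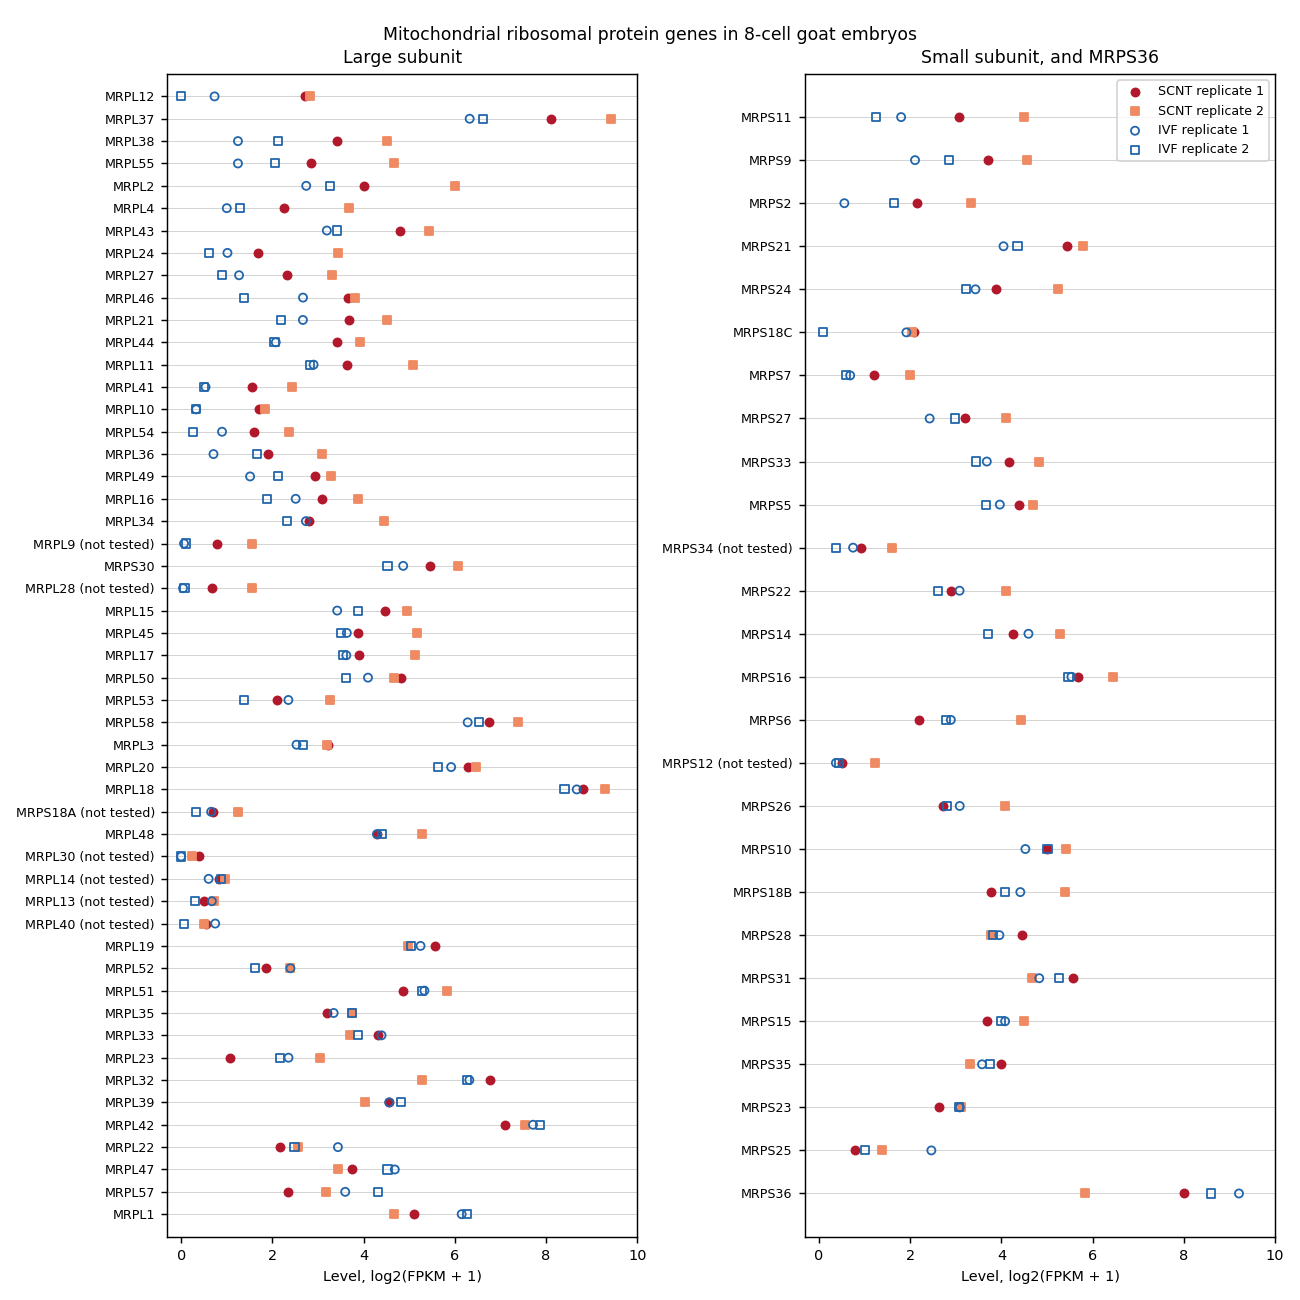
Each row is a gene, and its 4 symbols give the level in each 8-cell library as log2(FPKM + 1), filled for SCNT and open for IVF, with large subunit genes at left, small subunit genes and MRPS36 at right, and rows ordered by the difference SCNT minus IVF. In the upper rows both filled symbols lie to the right of both open ones, which held for 46 of the 77 genes, and in 6 genes, MRPS36 and MRPL1 among them, they lie to the left. Over all 20289 genes above 0 in any library these shares were 39.4% and 12.5%.

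Of 30 large subunit genes with bacterial relatives 25 were tested, 1 rose and 24 did not pass. Both SCNT values were above both IVF values in 17 of the 25 (68.0%, against 46.9% of all tested genes) and below them in 2 (8.0%, against 17.1%). The median log2 difference was 1.06. The stalk of the ribosome is the flexible arm that recruits translation factors. All 3 of its genes had both SCNT values above both IVF values, against 46.9% of all tested genes. For MRPL10 and MRPL12 that order was fixed by the filter, which they passed only through their SCNT values.

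MRPL12, whose protein forms the tip of the stalk and in human cells also binds the mitochondrial RNA polymerase, had 5.55 and 6.08 FPKM in SCNT embryos, against 0.661 and 0 FPKM in IVF embryos. These levels rest on 191 and 210 reads in SCNT embryos, against 22 and 0 reads in IVF embryos, where 3 reads would be 0.0816 FPKM in IVF replicate 2. The SCNT libraries were close to each other, and in FPKM the gap to the IVF libraries was far wider than the spread within either group. With 22 and 0 reads, the IVF libraries themselves lay far apart as a ratio. MRPL12 averaged 5.82 ± 0.372 FPKM in SCNT embryos and 0.33 ± 0.467 FPKM in IVF embryos (SD, n = 2 each). It rose by 2.40 ± 0.42 on the log2 scale (SE), with an adjusted p of 0.0342 in limma, having passed the filter only through its SCNT values. The ratio of recovered reads at equal depth was 18.5, with a 95% interval of 12.1 to 29.9 that covers counting error only. The limma call was lost without SCNT replicate 2 (adjusted p = 0.0843), without IVF replicate 2 (0.145) and with no filter (0.242). With a pseudocount of 0.1 FPKM the difference was 4.42, and with recovered reads in voom 5.98.

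MRPL10, the anchor of the stalk, had 2.27 and 2.57 FPKM in SCNT embryos, against 0.255 and 0.253 FPKM in IVF embryos. The replicates of each group were nearly equal, and its difference of 1.45 ± 0.33 just missed the threshold (limma adjusted p = 0.0515). MRPL11, at the base of the stalk, had 11.5 and 32.9 FPKM in SCNT embryos, against 6.48 and 6.11 FPKM in IVF embryos. Its SCNT libraries were far apart, and the difference of 1.5 did not pass (limma adjusted p = 0.111). Without SCNT replicate 2 the difference of MRPL11 was 0.78.

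Further genes of this class, chosen after their values were seen, had both SCNT values above both IVF values. MRPL2, a protein next to the peptidyl transferase centre, had 15.2 and 63.2 FPKM in SCNT embryos, against 5.69 and 8.63 FPKM in IVF embryos. MRPL4, a core protein that also lines the exit tunnel in bacteria, had 3.75 and 11.8 FPKM in SCNT embryos, against 1 and 1.44 FPKM in IVF embryos. MRPL27, whose bacterial relative reaches into the peptidyl transferase centre, had 4.00 and 8.83 FPKM in SCNT embryos, against 1.41 and 0.853 FPKM in IVF embryos. In each of the 3 genes both SCNT libraries were higher and SCNT replicate 2 was the highest, and limma's adjusted p was 0.0868, 0.0765 and 0.0668. MRPL55, a protein of the central protuberance, had 6.17 and 24.3 FPKM in SCNT embryos, against 1.37 and 3.14 FPKM in IVF embryos, with a difference of 2.10 (limma adjusted p = 0.0808). Differences of MRPL2, MRPL4, MRPL27 and MRPL55 were 2.01, 1.82, 1.73 and 2.10 with both SCNT libraries. They were 1.02, 1.10, 1.24 and 1.19 without SCNT replicate 2. MRPL3, a core protein that binds early in assembly, differed least of these, with 8.31 and 8.19 FPKM in SCNT embryos, against 4.77 and 5.37 FPKM in IVF embryos. Others of the class overlapped between the groups, with differences of -0.60 for MRPL22, -0.27 for MRPL32, -0.13 for MRPL33, -0.07 for MRPL35 and 0.13 for MRPL19, and none of these passed.

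The genes of the exit tunnel did not move as a unit. MRPL24 had 2.21 and 9.82 FPKM in SCNT embryos, against 1.02 and 0.517 FPKM in IVF embryos. MRPL45, which ties the ribosome to the inner membrane at the tunnel mouth, had 13.7 and 34.8 FPKM in SCNT embryos, against 11.4 and 10.3 FPKM in IVF embryos. MRPL23 had 1.10 and 7.20 FPKM in SCNT embryos, against 4.11 and 3.50 FPKM in IVF embryos. For MRPL24 and MRPL45 both SCNT libraries were higher, whereas the SCNT values of MRPL23 lay on either side of the IVF values. None of the 3 passed, with limma adjusted p of 0.0941 for MRPL24, 0.242 for MRPL45 and 0.852 for MRPL23. Differences of MRPL24, MRPL45 and MRPL23 were 1.75, 0.95 and -0.21, and 0.87, 0.31 and -1.19 without SCNT replicate 2.

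The large subunit genes found only in mitochondria had a median difference of 0.95 over 19 tested genes of 21. Of the 19 genes 1 rose and 18 did not pass, and both SCNT values were above both IVF values in 12 (63.2%, against 46.9% of all tested genes) and below them in 3 (15.8%, near the 17.1% of all tested genes). MRPL37, a protein of this class, had 277 and 681 FPKM in SCNT embryos, against 79.2 and 96.6 FPKM in IVF embryos. Both SCNT libraries were several times higher, and they differed from each other by 1.30 on the log2 scale. MRPL37 averaged 479 ± 286 FPKM in SCNT embryos and 87.9 ± 12.3 FPKM in IVF embryos (SD, n = 2 each). It rose by 2.30 ± 0.49 on the log2 scale (limma adjusted p = 0.0463). The call was lost without SCNT replicate 2 (adjusted p = 0.0673), IVF replicate 1 (0.17) or IVF replicate 2 (0.0845), with no filter (0.242), with a mean of 5 FPKM required (0.0656), with median centring (0.0626) and with no variance trend (0.0554). On leaving out each library in turn the difference stayed between 1.65 and 2.95.

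The central protuberance, the crown of the large subunit at the interface, holds several further proteins of this class. MRPL38 had 9.74 and 21.9 FPKM in SCNT embryos, against 1.37 and 3.35 FPKM in IVF embryos, a difference of 2.29 (limma adjusted p = 0.0555). MRPL46 had 11.7 and 13.0 FPKM in SCNT embryos, against 5.37 and 1.59 FPKM in IVF embryos, a difference of 1.72 (limma adjusted p = 0.0822). MRPL48 had 18.5 and 37.6 FPKM in SCNT embryos, against 18.6 and 20.1 FPKM in IVF embryos. The SCNT and IVF values of MRPL38 and MRPL46 did not overlap, and those of MRPL48 did. The fourth protein of that region, MRPL40, was below the filter.

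Other genes of this class with both SCNT values above both IVF values included MRPL43, with 26.9 and 42.4 FPKM in SCNT embryos, against 8.15 and 9.73 FPKM in IVF embryos. MRPL44, a protein with a ribonuclease III fold, had 9.66 and 14.1 FPKM in SCNT embryos, against 3.21 and 3.13 FPKM in IVF embryos. MRPL41 had 1.95 and 4.38 FPKM in SCNT embryos, against 0.448 and 0.406 FPKM in IVF embryos. In these 3 genes the IVF libraries were close together and the lower SCNT value was more than 2 times the higher IVF value, yet limma's adjusted p was 0.0559, 0.068 and 0.0661. MRPS30, which sits in the large subunit despite its name, had 43.2 and 66.2 FPKM in SCNT embryos, against 28.2 and 22 FPKM in IVF embryos.

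Of 25 small subunit genes 23 were tested, and limma called 0 of them, with 6 at an unadjusted p under 0.05 and 0 called on recovered reads. Their median difference was 0.63, against 1.01 over the 44 tested large subunit genes, and the difference between the subunits was not tested. Both SCNT values were above both IVF values in 11 of the 23 (47.8%), about the 46.9% of all tested genes, and below them in 0, against 17.1% of all tested genes. The 14 tested genes with bacterial relatives had a median of 0.85. All 14 differences were above 0 as deposited, against 65.8% of all tested genes. After quantile normalization 12 of 14 were above 0, and with each library centred on its median 10 of 14. The 9 tested genes found only in mitochondria had a median of 0.34, near the 0.39 of all tested genes. That median was -0.16 with each library centred on its median, where all genes stood at -0.10, and 0.05 without SCNT replicate 2.

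MRPS11, a protein of the platform, had 7.35 and 21.4 FPKM in SCNT embryos, against 2.48 and 1.38 FPKM in IVF embryos. Its difference of 2.25 was the largest of the small subunit (limma adjusted p = 0.0597), and was 1.54 without SCNT replicate 2. MRPS9, of the head of the subunit, had 12.1 and 22.6 FPKM in SCNT embryos, against 3.30 and 6.19 FPKM in IVF embryos. MRPS2 had 3.41 and 9.07 FPKM in SCNT embryos, against 0.469 and 2.12 FPKM in IVF embryos. MRPS21 had 42.0 and 54.0 FPKM in SCNT embryos, against 15.5 and 19.4 FPKM in IVF embryos. In each of these 4 genes the groups were apart, and MRPS21 had the closest replicates. MRPL46 and MRPS11 are neighbours in the order of protein-coding genes in RefSeq (ARS1.2), the only such pair of members, and both had higher values in SCNT embryos. Whether strand was used in counting is not stated in the labels, so reads of overlapping neighbours could not be told apart.

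Of the small subunit genes found only in mitochondria, MRPS27 and MRPS33 had groups that did not overlap. MRPS27, a protein with pentatricopeptide repeats, had 8.16 and 16.1 FPKM in SCNT embryos, against 4.37 and 6.86 FPKM in IVF embryos. MRPS33 had 16.8 and 27.3 FPKM in SCNT embryos, against 11.8 and 9.91 FPKM in IVF embryos. MRPS25 had 0.728 and 1.59 FPKM in SCNT embryos, against 4.51 and 0.999 FPKM in IVF embryos. Its difference of -0.65 rested on IVF replicate 1, without which it was 0.08. None of these 3 genes passed the test.

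**Figure D3:**
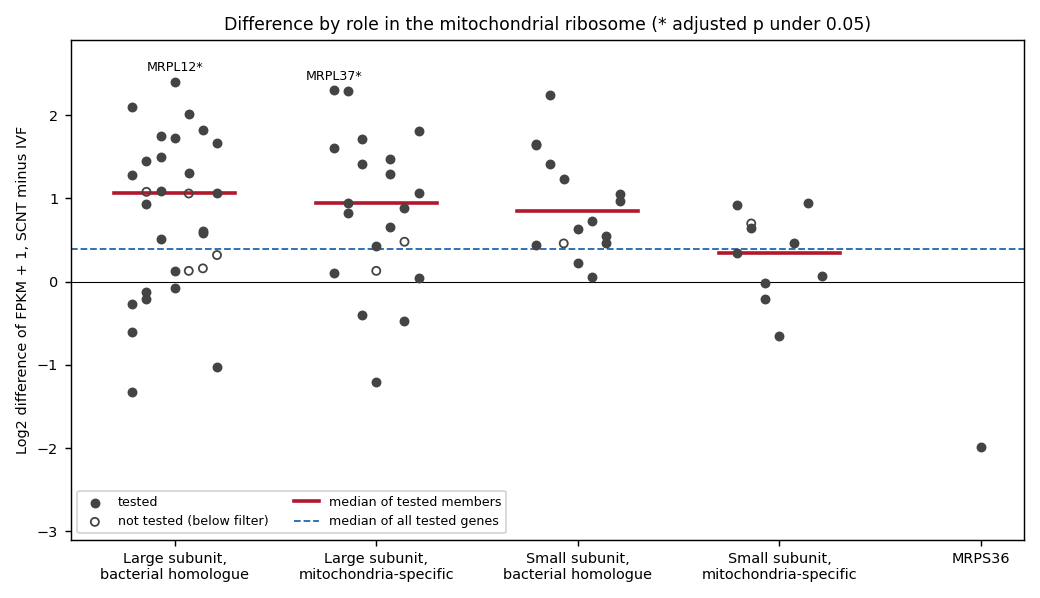
Points give the log2 difference of FPKM + 1, SCNT minus IVF, for each of the 77 genes by role, filled where tested and open where below the filter, with red bars for the median of the tested genes and a dashed line at the 0.39 of all tested genes. Medians were 1.06 and 0.95 in the large subunit classes, 0.85 and 0.34 in the small subunit classes, and MRPS36 stands alone at -1.99.

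The MRPS18 paralogues, 3 related genes of which each ribosome uses all products at different places, had unlike patterns. MRPS18B had 12.6 and 40.9 FPKM in SCNT embryos, against 20.3 and 15.9 FPKM in IVF embryos. MRPS18C, which takes the place of the bacterial protein, had 3.23 and 3.08 FPKM in SCNT embryos, against 2.77 and 0.0644 FPKM in IVF embryos. MRPS18A, part of the large subunit, had 0.626 and 1.36 FPKM in SCNT embryos, against 0.577 and 0.251 FPKM in IVF embryos. MRPS18B straddled the IVF values, and the low value of MRPS18C in IVF replicate 2 rested on 1 read. Related copies and processed pseudogenes can share reads, and how the authors counted such reads is not stated in the labels.

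A small group of genes ran the other way, with both SCNT values below both IVF values. These were MRPS36, MRPL1, MRPL57, MRPL47, MRPL42 and MRPL39, and none passed the test. MRPS36 had 256 and 55.5 FPKM in SCNT embryos, against 590 and 385 FPKM in IVF embryos. Its protein is now known as KGD4, a subunit of the 2-oxoglutarate dehydrogenase complex of the citric acid cycle, and not as a core ribosomal protein. Its difference was -1.99 ± 0.66 (limma adjusted p = 0.0936), and -0.89 without SCNT replicate 2 against -3.08 without SCNT replicate 1.

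MRPL1, the protein of the arm through which spent transfer RNA leaves, had 33.3 and 24.3 FPKM in SCNT embryos, against 70.0 and 76.2 FPKM in IVF embryos. Replicates were close in both groups, and the difference was -1.33 ± 0.40 (limma adjusted p = 0.0769). MRPL57 had 4.10 and 7.99 FPKM in SCNT embryos, against 11.1 and 19.0 FPKM in IVF embryos. MRPL47, of the tunnel exit, had 12.4 and 9.76 FPKM in SCNT embryos, against 24.7 and 22 FPKM in IVF embryos. These 2 genes had differences of -1.20 and -1.02 and limma adjusted p of 0.15 and 0.144. MRPL39 differed little, with 22.6 and 15.3 FPKM in SCNT embryos, against 22.6 and 27.3 FPKM in IVF embryos.

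The 9 genes below the filter all had means under 1 FPKM, and their values rest on few reads. MRPL9, MRPL28, MRPL30, MRPS12, MRPS18A and MRPS34 had both SCNT values above both IVF values, while MRPL13, MRPL14 and MRPL40 overlapped. MRPL28 had 22 and 70 reads in SCNT embryos, against 1 and 2 reads in IVF embryos, a ratio of 31.2 at equal depth with a counting interval of 10.3 to 154. MRPL9 had 34 and 90 reads in SCNT embryos, against 2 and 4 reads in IVF embryos, a ratio of 21.0 with an interval of 9.38 to 58.3. MRPL30 had 24 and 13 reads in SCNT embryos, against 0 reads in both IVF libraries. Set against a floor of 3 reads over the group it was 12.5-fold higher, with a lower 95% counting limit of 9.69 for the ratio. All 3 are large subunit proteins with bacterial relatives, and all were barely detected in IVF embryos at these depths. MRPS12, of the decoding centre that checks codon against anticodon, had 0.409 and 1.35 FPKM in SCNT embryos, against 0.292 and 0.353 FPKM in IVF embryos. Another 5 genes passed the filter only through their SCNT values, being under 1 FPKM in both IVF libraries: MRPL10, MRPL12, MRPL41, MRPL54 and MRPS7. No gene passed only through its IVF values.

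Median differences were larger among the less abundant genes, in level classes drawn after the values were seen. The 15 tested genes with a mean of 1 to 5 FPKM had a median difference of 1.41, the 32 genes of 5 to 20 FPKM a median of 0.93, and the 21 genes of 20 FPKM or more a median of 0.44. The first class holds the 5 genes that passed the filter only through SCNT values. Over the whole table the median was also lower, 0.28 against 0.39, when a mean of 5 FPKM was required. In the last class, MRPL20 had 76.7 and 87.3 FPKM in SCNT embryos, against 59.5 and 48.9 FPKM in IVF embryos. MRPS16 had 50 and 85.7 FPKM in SCNT embryos, against 45.3 and 43.3 FPKM in IVF embryos. In both genes the groups did not overlap, and neither passed.

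The SCNT libraries lay apart in these genes. SCNT replicate 2 was above SCNT replicate 1 in 55 of the 68 tested genes and in 62 of all 77. The median gap, replicate 2 minus replicate 1 on the log2 scale, was 0.72 over the tested members in SCNT embryos and -0.10 in IVF embryos, against 0.25 in SCNT and 0.06 in IVF embryos over all tested genes. Set singly against the mean of the IVF libraries, SCNT replicate 1 had a median difference of 0.51 and SCNT replicate 2 one of 1.25, against 0.33 and 0.51 over all tested genes. Both SCNT libraries therefore lay above IVF by the median, with SCNT replicate 2 the farther. Across the 77 genes, which share their libraries and are not replicates, log2 levels correlated at 0.91 between the SCNT libraries and at 0.97 between the IVF libraries. The correlation with the IVF libraries was 0.91 and 0.93 for SCNT replicate 1, and 0.81 and 0.84 for SCNT replicate 2.

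The gap between SCNT libraries was widest in MRPS6, MRPS36 and MRPL2. MRPS6, a small subunit protein with a bacterial relative, had 3.54 and 20.5 FPKM in SCNT embryos, against 6.41 and 5.88 FPKM in IVF embryos, and its SCNT libraries lay on either side of IVF. MRPL32, a zinc-binding protein matured in yeast and mouse by an inner-membrane protease, went the opposite way, with 108 and 37.8 FPKM in SCNT embryos, against 78.8 and 76.3 FPKM in IVF embryos. Between the IVF libraries the widest gaps were those of MRPS18C, MRPS25 and MRPL46.

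**Figure D4:**
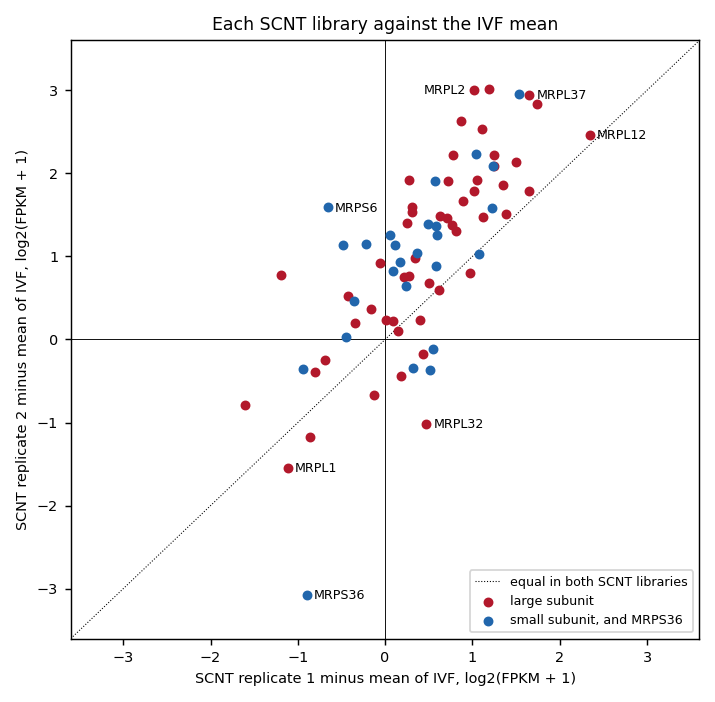
Each point is a gene, with the level of SCNT replicate 1 minus the mean of the IVF libraries on the horizontal axis and of SCNT replicate 2 minus the same mean on the vertical axis, both in log2(FPKM + 1); the dotted line marks equal values. Most points lie above 0 on both axes and above the dotted line, 62 of the 77 genes being higher in SCNT replicate 2 than in SCNT replicate 1, and both axes share the IVF mean.

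Genes that build and serve the mitochondrial ribosome were read beside the members, in lists chosen by function. Of the 5 ribosomal proteins with other names limma called 0, with 1 at an unadjusted p under 0.05 and 0 called on recovered reads, and the median difference was 0.74. AURKAIP1, a small subunit protein, had 3.74 and 13.6 FPKM in SCNT embryos, against 1.16 and 1.09 FPKM in IVF embryos. GADD45GIP1, a large subunit protein, had 3.76 and 5.38 FPKM in SCNT embryos, against 2.14 and 1.54 FPKM in IVF embryos. Both had higher values in both SCNT libraries, with limma adjusted p of 0.0724 and 0.168. Their differences of 1.97 and 0.97 were 1.16 and 0.75 without SCNT replicate 2.

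The assembly and ribosomal RNA modification list had 2 genes that rose and none that fell among 21 tested (9.52% called, against 3.86% of all tested genes), with 19 not passing and a median of 0.89. Both SCNT values were above both IVF values in 13 of the 21 (61.9%, against 46.9% of all tested genes). NSUN4, a ribosomal RNA methyltransferase that acts in joining the subunits, had 10.7 and 23.6 FPKM in SCNT embryos, against 1.54 and 2.77 FPKM in IVF embryos. MTG1, a GTPase of late large subunit assembly, had 2.36 and 7.01 FPKM in SCNT embryos, against 0.0982 and 0 FPKM in IVF embryos. NSUN4 rose by 2.45 ± 0.53 (limma adjusted p = 0.0463) and MTG1 by 2.31 ± 0.46 (limma adjusted p = 0.0425). MTG1, RCC1L, MRM2, RPUSD4, DHX30 and METTL17 passed the filter only through their SCNT values, being under 1 FPKM in both IVF libraries. They could therefore only lie higher in SCNT embryos, and they count in the list's median, in its 13 of 21 and, for MTG1, in its calls. Without SCNT replicate 2 limma's adjusted p was 0.106 for NSUN4 and 0.0736 for MTG1. Without IVF replicate 1 it was 0.237 for NSUN4, and without IVF replicate 2 it was 0.0786 for NSUN4 and 0.051 for MTG1. Both calls were also lost with no filter (0.242 each), that of MTG1 with no variance trend (0.0527), and that of NSUN4 with median centring (0.0555), quantile normalization (0.0722) and a mean of 5 FPKM required (0.0656). FASTKD2 and LACTB2, which act on mitochondrial RNA, lay the other way. FASTKD2 had 56.0 and 36.2 FPKM in SCNT embryos, against 91.7 and 107 FPKM in IVF embryos.

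Among the aminoacyl-tRNA synthetases and related enzymes, which charge transfer RNAs, 1 of 15 tested genes rose and 14 did not pass, and the median was 0.67. The 1 call is 6.67% of the list, against 3.86% of all tested genes. GATB, a subunit of the amidotransferase that makes glutaminyl-tRNA, had 4.94 and 8.71 FPKM in SCNT embryos, against 0.689 and 0.675 FPKM in IVF embryos. It rose by 2.17 ± 0.44 (limma adjusted p = 0.0425), and the call was lost without SCNT replicate 2 (adjusted p = 0.087), IVF replicate 1 (0.171) or IVF replicate 2 (0.13), with quantile normalization (0.0606) and with no filter (0.242). GATB, too, passed the filter only through its SCNT values, as did HARS2 and PARS2 of this list. HARS2, the histidyl-tRNA synthetase, had 3.57 and 5.6 FPKM in SCNT embryos, against 0.874 and 0.752 FPKM in IVF embryos, and just missed the threshold (limma adjusted p = 0.0603).

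The translation factors had a median of 0.56 over 12 tested genes. Limma called 0 of them, with 4 at an unadjusted p under 0.05 and 0 called on recovered reads. TUFM, the elongation factor that brings transfer RNA to the ribosome, had 3.52 and 12.7 FPKM in SCNT embryos, against 1.14 and 1.19 FPKM in IVF embryos. OXA1L, which inserts newly made proteins into the inner membrane, had 26.8 and 43.7 FPKM in SCNT embryos, against 11.8 and 11.0 FPKM in IVF embryos. Both genes lay higher in both SCNT libraries, and their adjusted p was 0.0785 and 0.0717 in limma. Their differences of 1.86 and 1.51 were 1.06 and 1.17 without SCNT replicate 2.

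The list for transcription and copying of mitochondrial DNA and care of its messenger RNAs had a median of 0.60 over 17 tested genes, but its SCNT libraries differed the other way. Limma called 0 of them, with 4 at an unadjusted p under 0.05 and 0 called on recovered reads. The median gap, SCNT replicate 2 minus replicate 1, was -0.96, against 0.72 for the ribosomal protein genes, and this difference was not tested. TFAM, which packs mitochondrial DNA and starts its transcription, had 3.81 and 1.15 FPKM in SCNT embryos, against 0.649 and 0.711 FPKM in IVF embryos. GRSF1, a protein of mitochondrial RNA granules, had 79.1 and 20.7 FPKM in SCNT embryos, against 116 and 108 FPKM in IVF embryos. TBRG4, a protein of the FASTK family, had 2.29 and 7.23 FPKM in SCNT embryos, against 0.352 and 0.333 FPKM in IVF embryos. HSD17B10, a subunit of mitochondrial ribonuclease P, had 137 and 390 FPKM in SCNT embryos, against 57.2 and 96.7 FPKM in IVF embryos. None of these 4 genes passed.

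**Figure D5:**
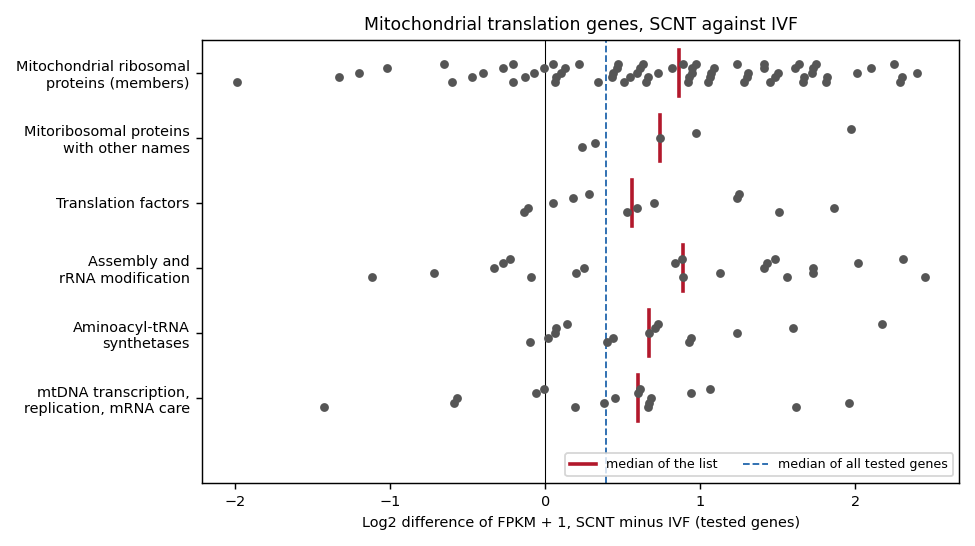
Each point is a tested gene, placed by its log2 difference of FPKM + 1, SCNT minus IVF, in the ribosomal protein genes (top row) and in 5 lists of genes that work with them, with a red bar at each list's median and a dashed line at the 0.39 of all tested genes. All 6 medians lie to the right of the dashed line, from 0.56 for translation factors to 0.89 for assembly and ribosomal RNA modification.

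With each library centred on its median, the 5 lists had medians of 0.24 for ribosomal proteins with other names, 0.07 for translation factors, 0.40 for assembly and modification, 0.18 for the synthetases and 0.10 for the mitochondrial DNA list. All genes then stood at -0.10, so each list's median stayed above it. Without SCNT replicate 2, where all tested genes had a median of 0.33, the translation factors were below it at 0.23, and the other 4 lists lay between 0.36 and 0.88.

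The ribosomal protein genes of the cytosol had a median difference of 0.37 over 84 tested genes, against 0.86 for the mitochondrial ones. Limma called 0 of the 84, with 14 at an unadjusted p under 0.05 and 1 called on recovered reads. Their median gap between IVF libraries, replicate 2 minus replicate 1, was -0.89, far wider than the -0.10 of the mitochondrial ribosomal protein genes. The nuclear genes for subunits of the respiratory chain and ATP synthase, whose mitochondrially made partners this ribosome produces, had a median of 0.15 over 51 tested genes. Of those 1 rose and 50 did not pass. Differences between these lists were not tested.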

How the data were processed

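RNA of whole embryos was amplified by Smart-seq2 from polyadenylated RNA, per the labels' protocols. Tools named in the submitters' processing notes, with no role, are HTSeq, fastp and HISAT2 2.2.1. Genome build and annotation: not given in the sources used here. The authors deposited FPKM values. Whole reads were recovered from the steps between FPKM values, giving 28.4 and 28.5 M reads (M, 1000000) in SCNT and 27.5 and 30.3 M in IVF libraries. All 4 values were whole, within the smaller of 0.01 read and 1e-05 of the count, for 100.0% of 1000 genes drawn. PCR copies cannot be told from molecules.

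Limma 3.58.1 (R 4.3.3; lmFit, eBayes with trend) was run two-sided on log2(FPKM + 1), which understates changes of low genes, and was tested on simulated data. Replicates may be technical, so p-values measure only the spread between these samples. No sequences or promoters were analysed here.

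Members and lists were chosen with earlier results of these data known. Named were genes past the threshold, the 5 highest and 5 lowest differences, the 5 highest levels, 11 genes of known function, the 3 widest gaps per group, and those below the filter; in other lists, those past the threshold and the 2 largest differences. Other named genes were chosen after their values were seen. Alternatives covered pseudocount, filter, scaling, replicate block, variance trend, left-out libraries and, added after seeing the data, voom. MRPS17 was not analysed here.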

Additional observations from a re-analysis of the deposited data

How the results depend on the processing

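Against 398 genes and 2 members called, the pseudocount of 0.5 FPKM gave 578 genes and 4 members. Rescaling each library to 1000000 gave 1327 genes and 14 members. Median centring gave 396 genes and 1 member, and no variance trend 282 genes and 1 member. With no filter limma called 0 genes and 0 members, although 3661 genes and 28 members had an unadjusted p under 0.05. Requiring a mean of 5 FPKM gave 77 genes and 0 members. Under that requirement 1726 of 6199 genes and 21 of 53 members had an unadjusted p under 0.05. Calls split into 311 higher and 87 lower as deposited, 1133 and 194 rescaled, 158 and 238 under median centring, and 121 and 150 under quantile normalization. Leaving out each library in turn gave 46 to 3834 genes and 0 to 37 members, with most of both without SCNT replicate 1, fewest genes without SCNT replicate 2, and 0 members without SCNT replicate 2 (22 at an unadjusted p under 0.05) or IVF replicate 2 (15). Without IVF replicate 1 it was 173 genes and without IVF replicate 2 it was 257. The members' median difference then lay between 0.51 and 1.25, that of the large subunit between 0.67 and 1.43, and that of the small subunit between 0.42 and 1.14. Median centring gave medians of 0.36 for the members, 0.51 for the large and 0.14 for the small subunit, and quantile normalization gave 0.51, 0.63 and 0.33 in the same order. Under median centring MRPS18B turned to -0.16 and MRPS6 to -0.02. Leaving out each library in turn, the difference ran between -1.19 and 0.77 for MRPL23, -1.02 and 0.47 for MRPL32, -0.47 and 1.14 for MRPS18B, -0.65 and 1.59 for MRPS6 and -1.38 and 0.08 for MRPS25. Only chosen genes were followed singly under these settings. Of their values 783 kept their direction and side of the threshold, 87 gained a call, 26 lost one and 7 changed sign, those 7 all named here. Members not followed singly also changed sign. Of the 68 tested members, 54 had a difference above 0 as deposited (79.4%, against 65.8% of all tested genes). The count was 43 under median centring and 48 under quantile normalization, where the medians of all tested genes were -0.10 and -0.01. With the replicate number as a block, 1924 genes and 21 members were called, 20 of them higher in SCNT; the numbers share only a name, and replicate differences of the 2 groups correlated at 0.117 across genes with 2 pairs, so the block was not relied on. The causes of these shifts were not tested. With 2 libraries a group, depths of 27.5 to 30.3 M reads (M, 1000000) limit genes under 1 FPKM most.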
